A study of Mus musculus with 6 samples.

Results

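The 10 genes of the growth hormone axis described here were chosen by their symbols in GENCODE release M21 (GRCm38), out of 54532 genes that the count table lists by Ensembl identifier. They are the receptor Ghr, its kinase Jak2, the transcription factors Stat5a and Stat5b, the feedback inhibitors Socs2 and Cish, the repressors Bcl6 and Cux2, and the secreted products Igf1 and Igfals. Liver RNA was sequenced from 3 HFD and 3 HFD+Allantoin-H mice, with 1 library per mouse. All were wild-type C57BL/6J males, aged 8 weeks at the start, that received a high-fat diet (HFD) for 4 weeks and then for 4 further weeks, during which the HFD+Allantoin-H group had allantoin, an oxidation product of uric acid, in the drinking water. The sample labels name doses of 0.06 and 0.3 mg/mL without assigning one to the libraries, and the 0.3 mg/mL of Allantoin-H is taken from the study's methods. The series holds no library of chow-fed mice, and the study describes RNA sequencing of the HFD and Allantoin-H groups only. Both groups therefore share the high-fat diet.

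Growth hormone from the pituitary binds GHR on hepatocytes and activates the receptor-bound kinase JAK2, which phosphorylates STAT5A and STAT5B. STAT5 then enters the nucleus and induces Igf1, Igfals and, within a short time of each hormone pulse, the inhibitors Cish and Socs2, which damp the receptor. In male mice the hormone comes in pulses and in females more evenly, and this pattern sets the sex bias of many liver genes. BCL6 represses female-biased genes in males, while CUX2 is a female-biased repressor of male-biased genes.

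The libraries held 11326372 to 14601457 counts. The TMM factors, which correct for the share of reads taken by a few abundant genes, ran from 0.756 to 0.951 in HFD and from 1.12 to 1.19 in HFD+Allantoin-H, alongside genes of the mitochondrial chromosome with 17.9% to 36.5% of counts in HFD and 6.92% to 11.4% in HFD+Allantoin-H. The summed level of the 9 hepatocyte markers found, Alb among them, was 102400 to 103700 CPM (counts scaled to a common library size after TMM) in HFD and 80550 to 111400 CPM in HFD+Allantoin-H. Of these markers Apob and Cps1 were called higher and Ttr, Apoa1 and Apoa2 lower, and their median log2 fold change was -0.58. Adipocyte markers set HFD replicate 2 apart. Adipoq stood at 51.4 CPM there, at 0 in the other two HFD libraries, and at no more than 0.0733 CPM in HFD+Allantoin-H. The 12 macrophage markers summed to 191.9 to 462.5 CPM in HFD and 518.4 to 592.9 CPM in HFD+Allantoin-H, with 3 called higher. The 10 stellate cell markers summed to 139.4 to 240.1 CPM and 296.0 to 358.7 CPM, with 6 called higher, and their part in the results below was not tested. Among the other marker lists, endothelial markers summed to 125.8 to 220.6 CPM in HFD and 191.5 to 288.2 CPM in HFD+Allantoin-H, with 1 called higher and 1 lower. Cholangiocyte markers summed to 34.5 to 159.0 and 21.9 to 76.8 CPM, with Sox9 called lower. Blood cell markers summed to 357.6 to 1350 and 890.6 to 1074 CPM and adipocyte markers, mostly Car3, to 3204 to 4212 and 2512 to 3819 CPM, with no edgeR call (at an unadjusted p under 0.05, blood markers had 1 higher and 2 lower and adipocyte markers 1 lower). HFD replicate 3 also stood apart, with the highest cholangiocyte sum (159.0 CPM against 43.1 and 34.5 CPM in HFD replicates 1 and 2) and the lowest blood cell sum (357.6 against 1350 and 1184 CPM). In whole liver, fewer cells of a type and less RNA per cell cannot be told apart.

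Igf1 fell 1.87-fold, Jak2 rose 1.54-fold, and the other 7 tested members did not pass the test. A gene was called at an adjusted p under 0.05 in edgeR's quasi-likelihood test over all 12795 tested genes. Of the members, 9 passed the filter on low counts and Cux2 did not. The single member called higher compares with 11.3% of all tested genes, and the single member called lower with 13% of them, so the number of calls among the members was close to that of genes in general. The HFD+Allantoin-H libraries all lay above the HFD libraries for Ghr and Jak2 (22.4% of tested genes did so) and all below them for Igf1 (21.9%). Taken in either direction, 3 of the 9 tested members had groups that did not overlap, against 44.3% of all tested genes.

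**Figure D1:**
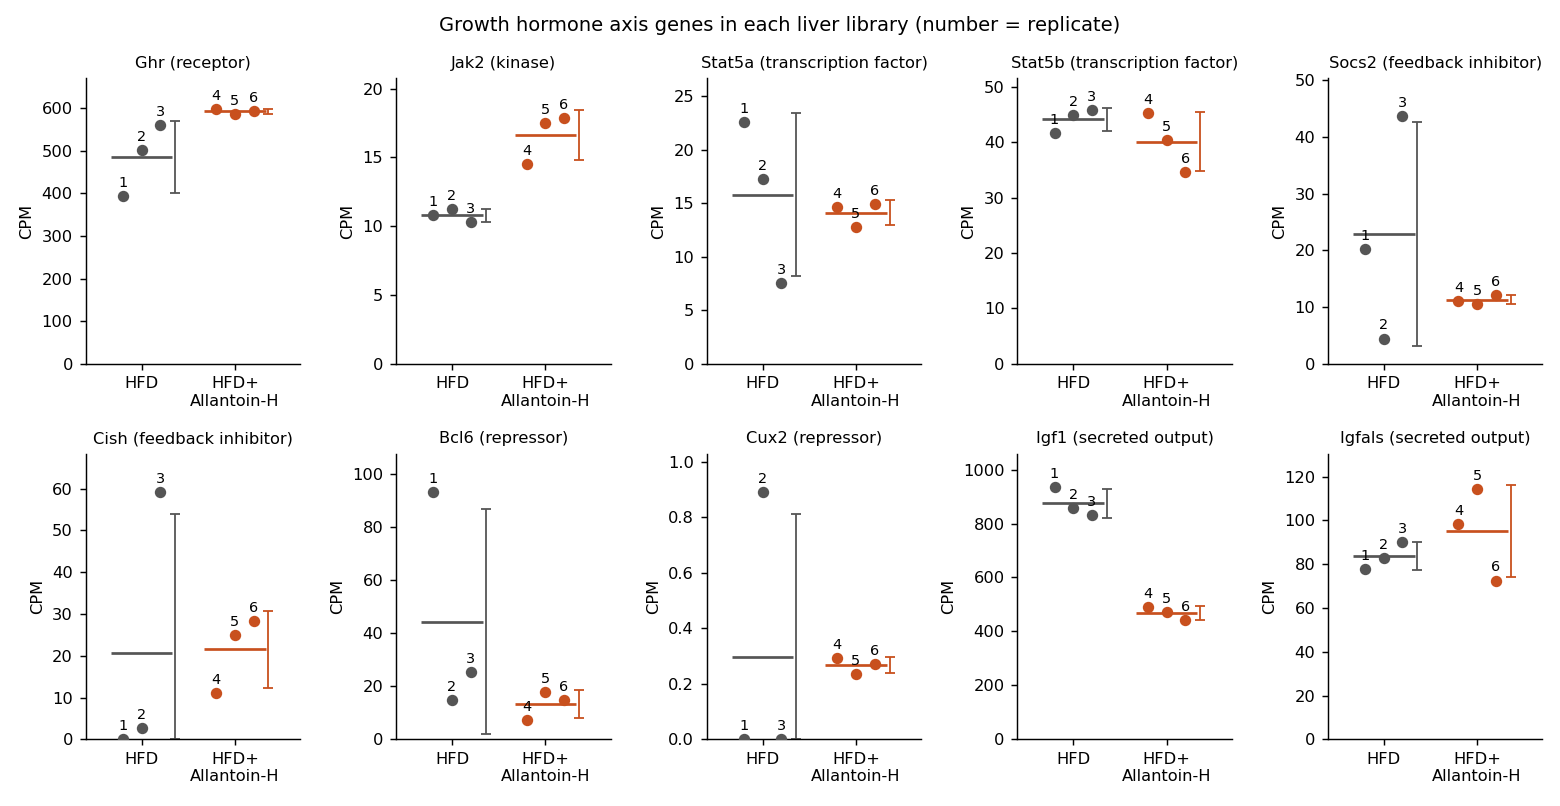
Normalized expression (CPM, linear axes from 0) of the 10 genes in each of the 6 libraries. Points are libraries numbered by replicate, horizontal lines are group means and bars are 1 SD, cut at 0 (n = 3). Igf1 is lower in all 3 HFD+Allantoin-H libraries, while Cish, Socs2 and Bcl6 range widely among the HFD libraries.

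Short stretches of promoter are shown for Cish, Bcl6 and Igfals because these are the members whose RefSeq start windows (GRCm38.p6, 250 bases before to 50 after each start) hold the letters TTCNNNGAA, the core that STAT5 binds and that overlaps the BCL6 motif. The core reads the same on both strands. Windows were present for 9 members, and Socs2 had none. Of all 32851 windows 8.3% hold the core at least once, 0.457% at least 2 times and 0.0335% at least 3 times. Counted by gene symbol, 9.55% of 27025 have the core in any of their windows. Each stretch is written 5′ to 3′ on the strand of its gene, with the core in capitals.
Cish, chr9:107296654-107296683 (plus strand), across the start: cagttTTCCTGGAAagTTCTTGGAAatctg
Bcl6, chr16:23981355-23981459 (minus strand), upstream of the inner start: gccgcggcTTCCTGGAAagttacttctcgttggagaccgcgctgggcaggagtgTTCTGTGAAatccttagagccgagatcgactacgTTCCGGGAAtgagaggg
Bcl6, chr16:23988954-23988978 (minus strand), upstream of the outer start: caaattagTTCTCAGAAttccagag
Igfals, chr17:24877600-24877624 (plus strand), upstream of the start at 24877844: tctataatTTCTCAGAAaagaggct
Igfals, chr17:24878165-24878189 (plus strand), upstream of the start at 24878231: gccaggtgTTCCTAGAAgaggccct
Cish carried a pair of cores, the first beginning at the RefSeq start itself and the next 11 bases further on, within an annotated Cish exon. The inner start of Bcl6 had 3 cores, beginning 168, 122 and 88 bases upstream and outside annotated exons, and its outer start had 1, at 118 bases. The Igfals cores began 236 and 58 bases upstream of their starts. No core lies in the third Igfals window or in the windows of the other 6 members that have one, Igf1 among them. A match describes these letters only, and no binding was measured.

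Igf1 (ENSMUSG00000020053, chromosome 10, 87858265 to 87937042) encodes insulin-like growth factor 1, the main hormone that the liver secretes in response to growth hormone. It stood at 936.3, 856.2 and 831.1 CPM in HFD replicates 1 to 3 and at 491.0, 472.6 and 441.4 CPM in HFD+Allantoin-H replicates 4 to 6. The highest HFD+Allantoin-H library was thus well under the lowest HFD library, and the libraries within a group lay close together. The group means were 874.5 ± 54.9 and 468.3 ± 25.1 CPM (SD, n = 3 mice each). On the log2 scale Igf1 fell by 0.90 (SE 0.16, edgeR adjusted p = 0.00605). The call was kept without each single library, with log2 fold changes from -0.93 to -0.85, and was lost with scaling by library size only (log2 fold change -0.48, adjusted p = 0.101). That scaling moved the median log2 fold change of all tested genes from -0.03 to 0.38, and relative to the median Igf1 stood at -0.86 against -0.87 with TMM. An antisense gene, Igf1os, lies across the locus without sharing exons, and held 26 to 160 counts in HFD and 24 to 25 counts in HFD+Allantoin-H against at least 6540 for Igf1. Igf1os was itself called lower (log2 fold change -2.18, adjusted p = 0.0212). The hepatocyte markers called lower, Ttr, Apoa1 and Apoa2, had log2 fold changes of -0.79, -1.23 and -1.03, on either side of that of Igf1. Those called higher, Apob and Cps1, had 0.92 and 1.05, and Alb had 0.13 without a call. Of the 9 markers, 3 had a positive and 6 a negative log2 fold change. The part of hepatocyte content in the fall of Igf1 was not tested.

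Igfals (ENSMUSG00000046070, chromosome 17, 24865997 to 24882010) encodes the acid-labile subunit, which binds IGF1 and its binding protein in the blood and prolongs their life. It is, like Igf1, a target of STAT5, but its values did not follow those of Igf1. It stood at 77.6, 83.1 and 90.3 CPM in HFD and at 98.5, 114.4 and 72.6 CPM in HFD+Allantoin-H, with replicate 6 below all HFD libraries. The log2 fold change was 0.19 (95% interval -0.25 to 0.63, edgeR adjusted p = 0.518). Per kilobase of exon, Igf1 exceeded Igfals by 2.94 to 3.86 times in the HFD libraries and by 1.32 to 1.95 times in the HFD+Allantoin-H libraries, and these ratios did not overlap.

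Ghr (ENSMUSG00000055737, chromosome 15, 3317760 to 3583492) encodes the growth hormone receptor and, from a shorter transcript in mice, the growth hormone-binding protein, which the gene-level counts do not separate. Its 3 HFD libraries stood at 394.8, 501.7 and 559.9 CPM and its HFD+Allantoin-H libraries at 598.7, 587.0 and 592.7 CPM. All HFD+Allantoin-H libraries were above all HFD libraries, but HFD replicate 3 lay near them and the difference was not called (log2 fold change 0.29, 95% interval -0.11 to 0.69, edgeR adjusted p = 0.261). The ratio of Igf1 to Ghr per kilobase of exon was 2.17, 1.56 and 1.36 in HFD and 0.750, 0.736 and 0.681 in HFD+Allantoin-H. The groups did not overlap in this ratio, whichever gene length is used. This follows from the separate values, because every HFD+Allantoin-H library was below HFD for Igf1 and above HFD for Ghr. By exon length, Igf1 was above Ghr in every HFD library and below it in every HFD+Allantoin-H library. The joined exons hold 9904 bases for Igf1 and 9053 for Ghr, but their longest transcripts have 7052 and 4175. Which gene is the higher in an HFD library therefore depends on the length used.

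Jak2 (ENSMUSG00000024789, chromosome 19, 29251828 to 29313080), which encodes the kinase bound to GHR and to several other cytokine receptors, rose from a mean of 10.8 ± 0.488 to one of 16.6 ± 1.82 CPM (SD, n = 3 mice each). Its values were 10.8, 11.3 and 10.3 CPM in HFD and 14.5, 17.5 and 17.8 CPM in HFD+Allantoin-H, without overlap. The log2 fold change was 0.62 (standard error 0.18, edgeR adjusted p = 0.0350). The call was close to the threshold. It was lost without any one library other than HFD replicate 1 (adjusted p of 0.0503 without HFD replicate 2, 0.0524 without HFD replicate 3 and 0.0691, 0.134 and 0.122 without HFD+Allantoin-H replicates 4, 5 and 6), with log2 fold changes of 0.57 to 0.72. After correction of each library for transcript length and GC content, the log2 fold change was 0.39 (adjusted p = 0.118). Jak2 is also expressed in macrophages, whose summed markers were higher in HFD+Allantoin-H, and their part in its rise was not tested.

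Stat5b (ENSMUSG00000020919, chromosome 11, 100780731 to 100850724), the form of STAT5 that carries most of the hormone's effect in liver, varied little. It stood at 41.7, 44.8 and 45.8 CPM in HFD and at 45.2, 40.4 and 34.6 CPM in HFD+Allantoin-H, with a log2 fold change of -0.14 (95% interval -0.50 to 0.22, edgeR adjusted p = 0.560). Stat5a (ENSMUSG00000004043, chromosome 11, 100859351 to 100885169) lies next to it on the other strand. It stood at 22.6, 17.3 and 7.52 CPM in HFD and at 14.7, 12.8 and 14.9 CPM in HFD+Allantoin-H, so that the HFD libraries spanned the other group on both sides (log2 fold change -0.16, 95% interval -0.93 to 0.62, edgeR adjusted p = 0.771, and 0.19 without HFD replicate 1). Per kilobase of exon, Stat5b exceeded Stat5a by 2.38 to 7.84 times in HFD and 2.99 to 4.07 times in HFD+Allantoin-H. The size of this ratio depends on the length used. The joined exons hold 5539 bases for Stat5b and 7133 for Stat5a, but their longest transcripts have 5213 and 3958. The genes share a stretch of 440 bases at 96.4% identity, in which reads could have been assigned to either, and Stat5a shares 72 exonic bases with Stat3 on the opposite strand.

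Among the HFD mice the feedback inhibitors differed most. Cish (ENSMUSG00000032578, chromosome 9, 107296026 to 107302784), a STAT5-induced inhibitor that binds phosphorylated receptors and whose start carries the pair of cores shown, had 0, 27 and 707 counts in HFD replicates 1 to 3 and 152, 423 and 421 counts in HFD+Allantoin-H replicates 4 to 6. In CPM these were 0, 2.67 and 59.1 against 11.1, 25.02 and 28.4. The 0 of HFD replicate 1 allows up to 3 counts, or 0.328 CPM. All HFD+Allantoin-H libraries thus lay between the lower pair of HFD libraries and the third. The group means were nearly the same, 20.6 ± 33.4 and 21.5 ± 9.15 CPM (SD, n = 3 mice each), and the log2 fold change of 0.05 had a 95% interval from -2.66 to 2.76 (edgeR adjusted p = 0.982). This value rests on HFD replicate 3, the library that also stood apart in cholangiocyte and blood cell markers, whose part was not tested. Without it the log2 fold change was 3.96 and called (adjusted p = 0.00772), and without HFD replicate 1 or 2 it was -0.53 or -0.47. With limma-voom, which averages log values, it was 2.91 (adjusted p = 0.204).

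Socs2 (ENSMUSG00000020027, chromosome 10, 95385362 to 95417180), whose product is the main brake on growth hormone signalling, stood at 20.3, 4.44 and 43.7 CPM in HFD and at 11.1, 10.53 and 12.2 CPM in HFD+Allantoin-H. The HFD libraries again lay on both sides of a narrow HFD+Allantoin-H group. The log2 fold change was -1.02 (95% interval -2.38 to 0.33, edgeR adjusted p = 0.239). It was -1.51 and called without HFD replicate 2, the library with adipocyte markers (adjusted p = 0.0133), and -0.12 without HFD replicate 3. Per kilobase of exon, Cish relative to Socs2 was 0, 0.891 and 2.01 in HFD and 1.49, 3.53 and 3.47 in HFD+Allantoin-H. The joined exons hold 6419 bases for Cish and 9531 for Socs2, but their longest transcripts have 4697 and 4242. Which of the inhibitors is the higher in a library can therefore depend on the length used. HFD replicate 3 was the highest library for both inhibitors, while the lowest was HFD replicate 1 for Cish and HFD replicate 2 for Socs2. Cish has an antisense gene, Gm17041, with 0 counts in all libraries and a pseudogene, Gm17040, with 1 to 9. The near-identical Socs2 copies Gm9847 and Gm8000 had at most 2 counts.

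Bcl6 (ENSMUSG00000022508, chromosome 16, 23965052 to 23988852), a repressor that growth hormone lowers in liver, stood at 93.0, 14.7 and 25.3 CPM in HFD and at 7.48, 17.8 and 14.7 CPM in HFD+Allantoin-H. HFD replicate 1, in which Cish had no count, had by far the most Bcl6, and the groups overlapped through HFD replicate 2. The log2 fold change was -1.73 (SE 0.62, 95% interval -3.12 to -0.33) and did not pass the test (edgeR adjusted p = 0.0703). Leaving out HFD replicate 1 gave -0.59 (adjusted p = 0.295), and without HFD replicate 2 or 3 it was -2.14 or -2.01 and called (adjusted p of 0.0248 and 0.0366). Cux2 (ENSMUSG00000042589, chromosome 5, 121856366 to 122050102) had 0, 9 and 0 counts in HFD and 4 counts in every HFD+Allantoin-H library. It was too low to be tested, and a difference was not detectable at this depth.

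**Figure D2:**
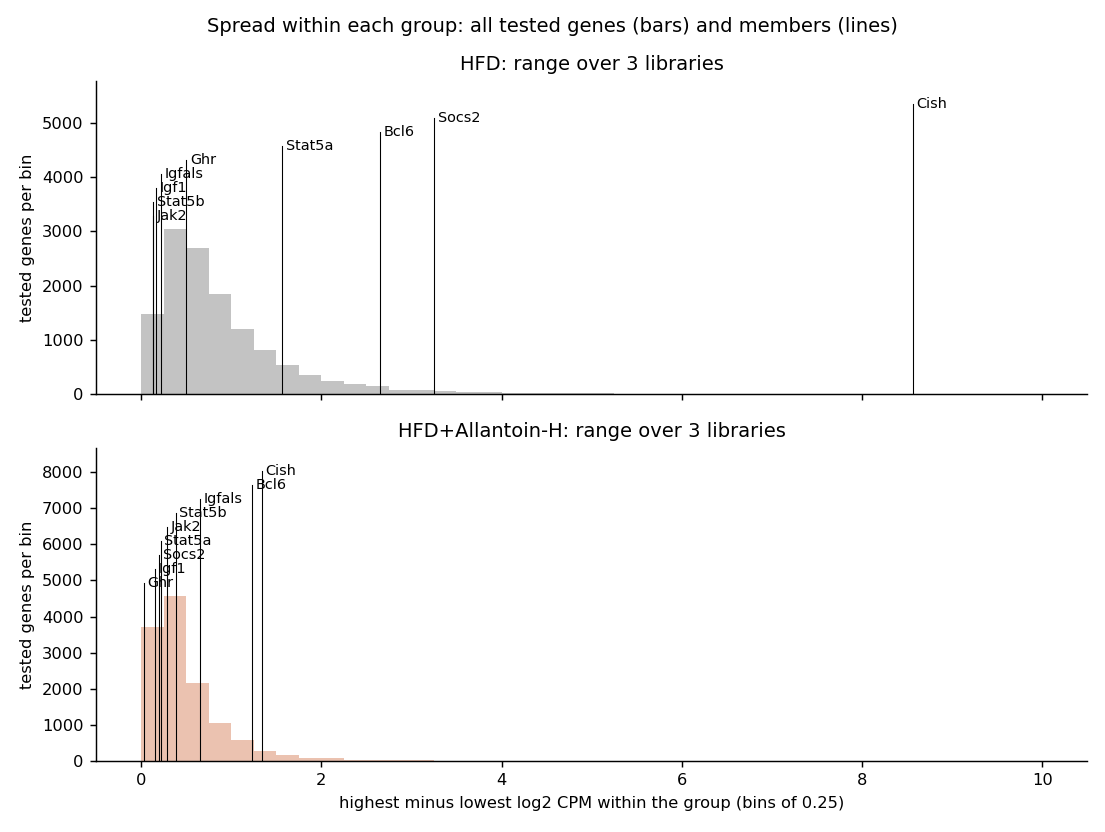
Distribution of the within-group range (highest minus lowest log2 CPM over 3 libraries) for all 12795 tested genes, with lines for the 9 tested members, in HFD (top) and HFD+Allantoin-H (bottom). In HFD, Cish, Socs2 and Bcl6 lie far to the right at 8.56, 3.25 and 2.65, and in HFD+Allantoin-H the ranges of Cish and Bcl6 are 1.34 and 1.23 and that of Socs2 is 0.20.

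The members differed in their spread among mice. In HFD, the log2 CPM of Cish ranged over 8.56 (computed with a prior count of 2, on which the value of a library at 0 depends), more than in 99.99% of tested genes, that of Socs2 over 3.25 (98.8%) and that of Bcl6 over 2.65 (97.3%). Stat5a ranged over 1.57, more than in 87.9% of genes. The components Jak2, Stat5b, Igf1 and Igfals ranged over 0.13 to 0.22, at percentiles 3.10, 3.46, 5.63 and 9.02 of all tested genes. In HFD+Allantoin-H the range of Cish was 1.34 (95.4%) and that of Bcl6 1.23 (94.0%), while Socs2 ranged over 0.20 (20.95%) and Ghr over 0.0285 (0.508%). Jak2, Stat5b and Igfals ranged more widely than in HFD, over 0.29 (36.9%), 0.38 (50.75%) and 0.66 (76.6%). Igf1 ranged over 0.15 and Stat5a over 0.22. All genes together varied less in HFD+Allantoin-H, with a median range of 0.38 against 0.67, and the difference in spread was not tested.

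Compared per kilobase of exon, the level of Igf1 in HFD (83.9 to 94.5 CPM per kilobase) was the highest of the members, followed by Ghr (43.6 to 61.8), Igfals (24.5 to 28.5) and Stat5b (7.53 to 8.27), none of which overlapped. In HFD+Allantoin-H the order of the leading pair by this measure was the reverse, with Ghr at 64.8 to 66.1 and Igf1 at 44.6 to 49.6, ahead of Igfals at 22.9 to 36.1 and Stat5b at 6.25 to 8.17. The orders given here rest on the joined exons of each gene, 9904 bases for Igf1 and 9053 for Ghr. Their longest transcripts have 7052 and 4175 bases, so the order of Igf1 and Ghr in HFD, and whether they overlap, depends on the length used. Bcl6 (2.20 to 13.9), Cish (0 to 9.21), Socs2 (0.466 to 4.59), Stat5a (1.06 to 3.17) and Jak2 (2.04 to 2.24) overlapped one another in HFD, and the highest libraries of Bcl6 and Cish exceeded Stat5b. In HFD+Allantoin-H, Socs2 was the lowest of these 5 genes on average, at 1.11 to 1.28, overlapping Bcl6 at 1.12 to 2.65. Cux2 was lowest in both groups, at no more than 0.0882.

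**Figure D3:**
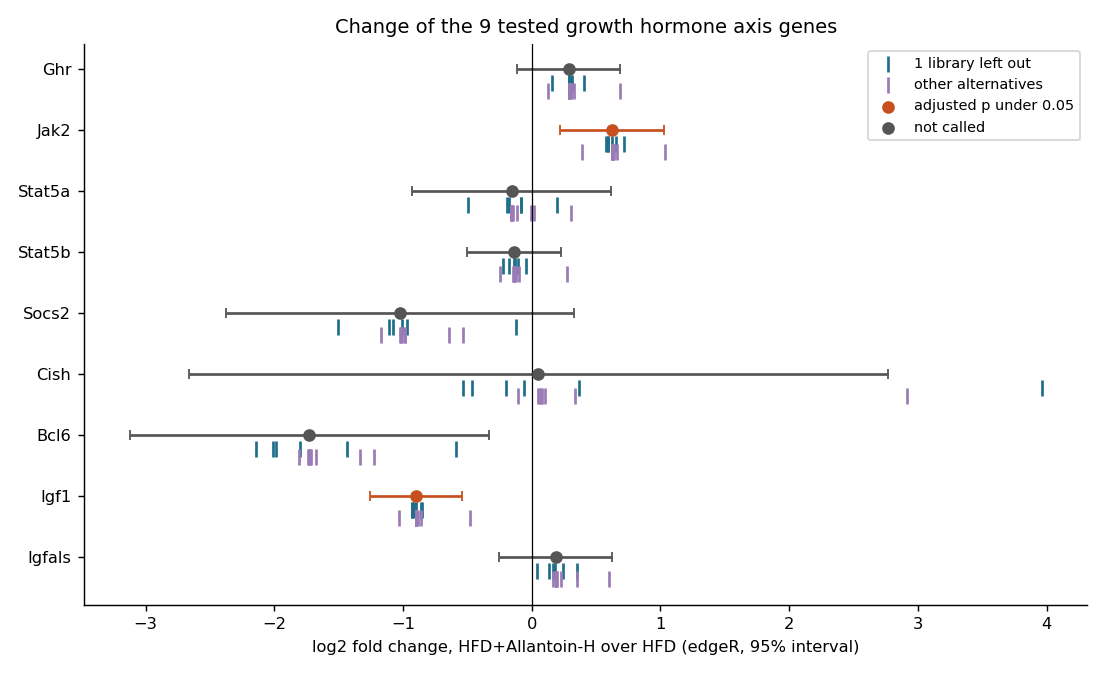
Log2 fold change (HFD+Allantoin-H over HFD, edgeR) of the 9 tested members with 95% intervals, with short bars for the fits that left out 1 library and for the other alternatives. Igf1 at -0.90 and Jak2 at 0.62 are called, and the bars of Cish spread from -0.53 to 3.96.

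The genes around the axis were examined in 7 lists with 142 distinct genes, of which 119 were tested. Across the lists 17 genes were called higher and 12 lower, which is 14.3% and 10.1% of those tested, against 11.3% and 13% of all tested genes. Of these 29 calls, 8 were kept without each single library, those of Stat2, Igfbp5, Cebpb, Mup21, Gstp1, Cyp2u1, Acot3 and Abcd2. The median log2 fold change of all tested genes was -0.03.

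Of the IGF system, which comprises the ligands, receptors and binding proteins of IGF1, 12 of 18 genes were tested, 1 was higher and none lower by edgeR (2 and 1 at an unadjusted p under 0.05, 1 and none with DESeq2), with a list median of 0.29. Igfbp5, whose product binds IGF1 in tissue matrix, was at 9.39, 7.61 and 8.44 CPM in HFD and at 38.9, 64.8 and 13.6 CPM in HFD+Allantoin-H. Each HFD+Allantoin-H library was above the HFD libraries, with replicate 6 much lower than the other two. The log2 fold change was 2.21 (standard error 0.47, edgeR adjusted p = 0.0120) and 1.64 to 2.62 without single libraries, beside the higher stellate cell markers given above. Igfbp1, a binding protein that rises in fasting and stress and falls with insulin, stood at 15.6, 10.2 and 289.6 CPM in HFD and at 13.1, 17.8 and 16.5 CPM in HFD+Allantoin-H, with HFD replicate 3 alone far above the rest (log2 fold change -2.73, adjusted p = 0.0928). The binding protein genes Igfbp4 and Igfbp2 had log2 fold changes of 0.31 and -0.02 and were not called (adjusted p of 0.247 and 0.969). The IGF2 receptor gene Igf2r was 0.44 higher on the log2 scale without a call (adjusted p = 0.0988), Igf1r stood at 1.12 to 2.76 CPM over all libraries, and Igf2 had no count.

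HFD replicate 3 was the highest HFD library for further genes, chosen after their values were seen, some of them outside the hormone's response. Socs1, a feedback inhibitor of interferon signalling, was at 0.546, 0.691 and 14.4 CPM in HFD and at 0.293 to 0.473 CPM in HFD+Allantoin-H, and was not tested because it did not pass the filter. Onecut1, a liver transcription factor that growth hormone induces, was at 2.29, 0.494 and 9.45 CPM in HFD and at 5.72, 12.3 and 15.5 CPM in HFD+Allantoin-H (log2 fold change 1.43, adjusted p = 0.197). For Onecut1 HFD replicate 3 lay within the HFD+Allantoin-H range. Lifr, the receptor gene of leukaemia inhibitory factor, was at 161.5, 150.4 and 410.6 CPM in HFD and at 126.3 to 155.8 CPM in HFD+Allantoin-H, and the cholangiocyte marker Sox9 at 13.0, 8.30 and 43.6 CPM in HFD.

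Among the other cytokine receptors, JAKs and STATs, 4 of 21 tested genes were higher and 1 lower. None of the 4 rises was called without HFD+Allantoin-H replicate 5. Of all tested genes, 460 of 13210 were higher in that fit, against 1446 of 12795 with all libraries. The list median was 0.00, and -0.15 with at least 10 counts in every library. Il6st, the shared receptor chain gp130 of the interleukin-6 family, rose by 0.85 on the log2 scale (edgeR adjusted p = 0.0118), and Il6ra, Ifngr2 and Jak1 by 0.72, 0.77 and 0.54. Stat2, a mediator of type I interferon signals, fell by 1.75 on that scale (edgeR adjusted p = 0.00392), with means of 118.7 ± 40.4 CPM in HFD and 35.2 ± 3.83 CPM in HFD+Allantoin-H (SD, n = 3 mice each). The prolactin receptor gene Prlr, closest in kind to Ghr, was not called (0.44, adjusted p = 0.176). The list of inhibitors holds SOCS proteins, phosphatases, PIAS proteins, the ubiquitin ligases Cbl and Cblb and the adaptor Sh2b3, with 16 genes tested. The phosphatase gene Ptpn11 was its only gene called, at 0.67 (edgeR adjusted p = 0.0400). Whether its product acts as an inhibitor here was not tested. Of the 6 fits without a library, its call was kept in those without HFD replicate 2 or 3. No gene of this list was called lower by edgeR (2 at an unadjusted p under 0.05, 1 with DESeq2).

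Of 21 adaptors and kinases downstream of the hormone and IGF receptors, 4 were higher and 2 lower (median 0.29). Akt1, Akt2, Gab1 and Lyn had log2 fold changes of 0.80, 0.71, 0.76 and 0.60. Grb14, an adaptor that inhibits the insulin receptor, had means of 71.3 ± 8.06 and 40.7 ± 3.74 CPM (SD, n = 3 mice each) and fell by 0.81 on the log2 scale (edgeR adjusted p = 0.00958), and Sh2b1, which enhances JAK2 activity, fell by 0.79 (edgeR adjusted p = 0.0126). The calls of Akt1, Akt2, Gab1 and Lyn were lost without HFD+Allantoin-H replicate 4 and also without replicate 5. That of Grb14 was lost without replicate 5 and that of Sh2b1 without replicate 4 and also without replicate 6. Of all tested genes, 596 were higher and 700 lower without replicate 4, 460 and 564 without replicate 5, and 702 and 832 without replicate 6. Of 20 transcription factors and corepressors, 3 were higher and 1 lower (median 0.18). Nr3c1 and Esr1 rose by 0.60 and 0.78 on the log2 scale, each call being lost in at least 4 of the 6 fits without a library. Cebpb had means of 257.4 ± 14.9 and 104.6 ± 16.2 CPM (SD, n = 3 mice each) and fell by 1.30 on the log2 scale (edgeR adjusted p = 0.00340). Hnf4a, which activates many hepatocyte genes, was not called (log2 fold change -0.11, adjusted p = 0.735).

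**Figure D4:**
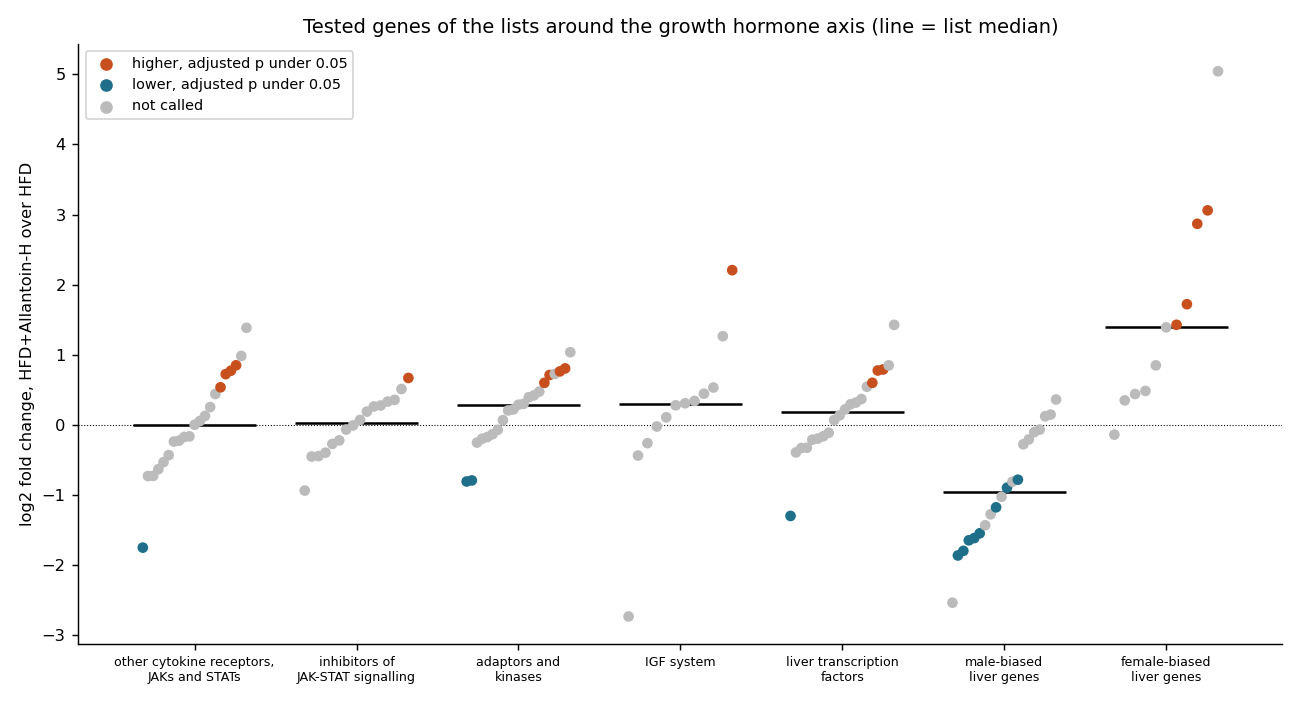
Log2 fold change (HFD+Allantoin-H over HFD, edgeR) of each tested gene in the 7 lists, with called genes coloured and a line at each list's median. The medians of the male-biased and female-biased lists are -0.96 and 1.39, and those of the other 5 lists lie between 0.00 and 0.29.

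Of genes known to be higher in male than in female liver, 8 of 20 tested were lower and none higher by edgeR (9 and none at an unadjusted p under 0.05, 8 and none with DESeq2), with a median of -0.96 (-1.18 to -0.77 without single libraries). Without HFD+Allantoin-H replicate 5 or replicate 6, 3 were lower. Of all tested genes, 564 of 13210 and 832 of 13231 were lower in those fits. With all libraries 1666 of 12795 were lower by edgeR, and DESeq2 called 1966 lower and 1747 higher. Cyp2u1, Mup21, Gstp1 and Mup3 had log2 fold changes of -1.62, -1.65, -1.80 and -0.90. The calls of the first 3 were kept without each library, and that of Mup3 was lost without HFD+Allantoin-H replicate 5 or 6. The Mup and Gstp genes belong to families of near-identical copies, between which reads could have been divided, so their values are uncertain. Cyp2d9 and Slco1a1, also male-biased, had -0.07 and 0.15 and were not called (adjusted p of 0.859 and 0.682). Of female-biased genes, 11 of 24 passed the filter, 4 were higher and none lower by edgeR (6 and none at an unadjusted p under 0.05, 5 and none with DESeq2), with a median of 1.39. Of all tested genes, 11.3% were higher with all libraries. Without single libraries 2 to 7 of the list were higher, against 460 to 1773 of all tested genes in those fits. The list median was 0.86 with at least 10 counts in every library. With no filter 20 genes were tested, of which 8 were higher and 1 lower, with a median of 0.71. Of all 23635 genes tested with no filter, 1822 were higher and 2134 lower. Acot3 and Abcd2, which also serve fatty acid metabolism in peroxisomes, had log2 fold changes of 2.87 and 1.72 (edgeR adjusted p of 0.0110 and 0.00938), and Fmo2 had 1.43. Cyp2b9, a cytochrome P450 typical of female liver, stood at 0.546, 0.395 and 4.85 CPM in HFD and at 5.57, 2.66 and 193.6 CPM in HFD+Allantoin-H, nearly all of its increase being in replicate 6 (adjusted p = 0.0520). Slc22a27 likewise had 15.4 CPM in replicate 6 and at most 1.69 CPM elsewhere, and its call was lost without that library or without any one HFD library. Cyp3a16, Cyp3a41a, Cyp3a41b and Sult2a1 had no count in any library, and A1bg and Sult2a2 were near 0. Cyp2c69, which did not pass the filter, went the other way, with 9, 2 and 15 counts in HFD and 0, 1 and 0 in HFD+Allantoin-H. The female-biased genes that were measured are therefore a minority of the list, and a gene at 0 in HFD could pass the filter only by being high in HFD+Allantoin-H, so that the count and median of those tested do not stand for the list.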

How the data were processed

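The authors deposited whole-number read counts per gene for 6 liver libraries, with no normalization. The labels name the builds GRCm38 and mm10, and the aligner, counting tool and strand setting are not given in the sources used here, so antisense or overlapping genes could share reads. Of the entries, 54532 carried Ensembl identifiers (54495 found in GENCODE M21) and 429 features without one, 0.197% to 0.306% of counts, were left out. No sample column was left unused. Groups were compared in R 4.3.3 by edgeR 4.0.16 after filterByExpr and TMM, using the quasi-likelihood test with group as the only term, and Benjamini-Hochberg adjustment over 12795 genes. The standard error came from the F statistic, and log-CPM used a prior count of 2. The procedure was tested on simulated counts. P-values measure the spread between mice, 3 per group, and no batch, date or pairing is given.

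The members, the lists and the rule for naming genes were chosen with earlier results of these data known. The rule names all 10 members and at most 4 called genes per direction in each list, smallest p first, and IGF system genes also when not called. Prlr, Hnf4a, Cyp2d9, Slco1a1, Cyp2b9, Cyp2c69, Lifr, Socs1, Onecut1 and the marker genes named fall outside it and were chosen after their values were seen. Some list genes that the rule would name are not reported here. Near-identical transcripts (at least 95% identity over 200 bases) came from BLAST 2.17.0, and levels per kilobase used the union of GENCODE exons. The fit was repeated with DESeq2 1.42.0 and limma-voom (limma 3.58.1), with scaling by upper quartile, RLE or library size only, without the mitochondrial chromosome, without each library, unfiltered or with 10 or more counts required in all libraries, at an adjusted p under 0.01, and after subtracting from each library a spline (5 degrees of freedom) on GC content and transcript length. A count of 0 allows up to 3 counts, or 0.178 to 0.328 CPM by library.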

Additional observations from a re-analysis of the deposited data

How the results depend on the processing

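Of the members, 1 was called higher and 1 lower. The count of members called higher was 0 to 1 without single libraries, 0 with the length and GC trend removed and 0 at an adjusted p under 0.01. Without HFD replicate 1 the member called higher was Jak2, and without HFD replicate 3 it was Cish. The count called lower was 1 to 3 without single libraries, 0 with library size only and 3 with no filter, where Socs2 (adjusted p = 3.87e-04) and Bcl6 (adjusted p = 4.30e-12) joined Igf1, for a cause that was not tested. Over all lists, 17 genes higher became 5 to 22 without single libraries, 39 with library size only, 26 with no filter and 1 at an adjusted p under 0.01. The 12 lower became 6 to 15 without single libraries, 6 with library size only, 22 with no filter and 6 at an adjusted p under 0.01. Of all genes, 1446 were higher and 1666 lower, against 3162 and 674 with library size only, and 460 and 564 without HFD+Allantoin-H replicate 5. Changes of sign were confined to members with log2 fold changes near 0. Stat5a was at 0.30 with library size only and 0.0186 with limma-voom, and ranged from -0.49 to 0.19 without single libraries. Stat5b was at 0.28 with library size only, which relative to the median of all genes is -0.11, and Stat5a is then at -0.08. Cish was at -0.10 with the length and GC trend removed and ranged from -0.53 to 3.96 without single libraries, and was not tested with at least 10 counts in every library. The cause of the call of Jak2 being lost with the trend removed was not tested. Ghr, Igfals, Igf1, Jak2, Socs2 and Bcl6 kept their direction in all 15 alternatives. No paired analysis was possible because the groups share no replicate numbers.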
